A study of Homo sapiens with 6 samples.

Results

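The 10 genes described here encode enzymes and partners that write DNA methylation and repressive histone marks: DNMT1, DNMT3A, DNMT3B, UHRF1, HELLS, EZH2, SUZ12, EED, SUV39H1 and CBX5. They were taken by gene name from a table of 34738 genes, and all 10 were present and passed the filter on low expression. Their identifiers are ENSG00000130816, ENSG00000119772, ENSG00000088305, ENSG00000276043, ENSG00000119969, ENSG00000106462, ENSG00000178691, ENSG00000074266, ENSG00000101945 and ENSG00000094916 in the same order. Thyroid cancer cells in which GDF15 was knocked down by siRNA (siGDF15) were set against control cells (NC), and each group had 3 RNA-seq libraries. The labels name the line KHM-5M, an established line of undifferentiated thyroid carcinoma, for all 6 libraries, while a figure legend of the study names TPC-1. The siRNA was delivered as lipid complexes in serum-free medium, and the time from transfection to harvest was not given in the sources used here. The methods list a negative control siRNA beside siGDF15 and call the sequenced controls negative control cells. A figure legend calls them vector control cells and the deposited description a blank control, and if they received no siRNA the effects of transfection and of siGDF15 cannot be told apart. The study's methods call the libraries biological replicates.

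DNA methylation is copied at each S phase by DNMT1, which UHRF1 recruits to hemimethylated DNA, and HELLS is the chromatin remodeler that lets the methylation machinery reach packed DNA. DNMT3A and DNMT3B place methyl groups on unmethylated DNA. Polycomb repressive complex 2 (PRC2) methylates histone H3 at lysine 27 through its catalytic subunit EZH2, which is inactive without SUZ12 and EED. SUV39H1 methylates histone H3 at lysine 9, and CBX5 encodes heterochromatin protein HP1 alpha, which binds that mark. Transcripts of several of these genes are known to be E2F targets and to be more abundant in dividing cells.

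Total expected counts ranged from 67569576 to 68025163 in NC and from 51738814 to 67793417 in siGDF15, where replicate 2 was lowest. The 10 genes had between 526 and 23994 expected counts per library. Mitochondrially encoded genes held 6.39% to 6.78% of counts in NC and 8.53% to 9.17% in siGDF15. GDF15, the targeted gene, had 22.4, 19.3 and 23.1 FPKM in NC and 10.8, 10.5 and 10.7 FPKM in siGDF15 (log2 fold change, log2FC, -0.92 with a standard error, SE, of 0.079 and an edgeR adjusted p = 2.4e-05). FPKM is a level per length, the number of fragments divided by transcript length and by library depth. Of 7 thyroid lineage markers, PAX8 averaged 59.1 FPKM in NC and FOXE1 was also above 1 FPKM. TG, SLC5A5, NKX2-1 and DIO1 were at most 0.219 FPKM in every library, and TSHR was not analysed here. The summed level of the lineage markers was 56.9 to 67.9 FPKM in NC and 80.3 to 83.6 FPKM in siGDF15, nearly all of it from PAX8. PAX8 had a log2 fold change of 0.53 (edgeR adjusted p = 1.2e-04), and FOXE1 did not pass the test (0.14, edgeR adjusted p = 0.22). The 5 epithelial markers summed to 102 to 149 FPKM in NC and 126 to 136 FPKM in siGDF15, mostly from KRT18. CDH1 was low, at a mean of 0.897 FPKM in NC and 1.28 FPKM in siGDF15 (log2 fold change 0.61, edgeR adjusted p = 0.049). The other 4 epithelial markers did not pass the test. Of 9 markers of blood, endothelium and fibroblasts, PTPRC, CD3E, VWF, CDH5 and PECAM1 were at most 0.161 FPKM in every library. The fibroblast markers were not low in the same way: COL3A1, COL1A1 and PDGFRA averaged 15.1, 5.66 and 1.04 FPKM in NC. CD68 averaged 18.3 FPKM in NC. The 9 summed to 37.2 to 42.8 FPKM in NC and 36.6 to 41.4 FPKM in siGDF15, mostly from COL3A1 and CD68.

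The sequences around the promoters are given as a description, beside the fall of 8 of the 10 genes described further on. RefSeq promoter windows of GRCh38.p14, from 250 bases before to 50 bases after each annotated start, were matched by symbol, and all 10 genes had at least 1 window (21 in all). They were searched on both strands for the E2F words TTTCCCGC, TTTCGCGC, TTTGCCGC and TTTGGCGC, for the CCAAT word that NF-Y binds, and for the word TTTGAA of the cell cycle homology region (CHR). An E2F word was present in 5 of the 10 genes, DNMT1, UHRF1, HELLS, EZH2 and SUZ12. The stretches that hold these words are shown 5′ to 3′ on the strand of the gene, with E2F and CCAAT words in capitals (GCGCGAAA, GCGGGAAA, GCGCCAAA and ATTGG are words read on the opposite strand).
DNMT1 (chr19:10194944-10194975, minus strand): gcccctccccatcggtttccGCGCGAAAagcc
UHRF1 upstream start (chr19:4909395-4909510, plus strand): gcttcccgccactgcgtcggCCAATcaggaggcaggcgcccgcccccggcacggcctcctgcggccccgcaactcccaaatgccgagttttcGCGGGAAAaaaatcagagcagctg
UHRF1 downstream start (chr19:4909964-4910086, plus strand): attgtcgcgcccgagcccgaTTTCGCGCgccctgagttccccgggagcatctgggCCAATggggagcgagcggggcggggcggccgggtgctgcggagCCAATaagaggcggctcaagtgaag
HELLS (chr10:94545574-94545797, plus strand): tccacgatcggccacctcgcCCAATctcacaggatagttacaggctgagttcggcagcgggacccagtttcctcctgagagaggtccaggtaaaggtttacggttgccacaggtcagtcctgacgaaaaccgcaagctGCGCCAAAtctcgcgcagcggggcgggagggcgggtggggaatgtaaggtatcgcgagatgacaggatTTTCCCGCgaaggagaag
EZH2 (chr7:148884282-148884405, minus strand): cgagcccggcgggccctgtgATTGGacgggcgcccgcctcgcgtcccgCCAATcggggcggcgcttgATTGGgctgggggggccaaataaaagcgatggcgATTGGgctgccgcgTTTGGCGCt
SUZ12 (chr17:31936798-31937000, plus strand): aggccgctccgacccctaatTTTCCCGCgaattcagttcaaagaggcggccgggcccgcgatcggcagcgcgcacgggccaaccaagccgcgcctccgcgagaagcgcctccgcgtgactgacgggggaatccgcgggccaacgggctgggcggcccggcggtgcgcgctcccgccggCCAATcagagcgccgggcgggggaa
With the annotated start as position 1 and no position 0, the E2F word spanned positions -2 to 6 in DNMT1 and 2 to 9 in EZH2. HELLS held words at -76 to -69 and at -8 to -1. The words of UHRF1 began 14 bases before its upstream start and 160 bases before its downstream start. In SUZ12 the word lay farther out, at -189 to -182, and a CHR word followed at -173 to -168. EED, SUV39H1, CBX5 and DNMT3B each held a CCAAT word in at least 1 window and no E2F word in any window. The stretch around 1 such CCAAT word is given for each of these 4 genes.
EED (chr11:86244717-86244761, plus strand): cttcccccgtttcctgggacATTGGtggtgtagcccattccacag
SUV39H1 downstream start (chrX:48696676-48696720, plus strand): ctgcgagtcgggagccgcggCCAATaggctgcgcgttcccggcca
CBX5 upstream start (chr12:54280127-54280171, minus strand): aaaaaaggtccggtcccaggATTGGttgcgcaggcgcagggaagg
DNMT3B (chr20:32779719-32779763, plus strand): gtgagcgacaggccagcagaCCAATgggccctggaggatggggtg
The 6 windows of DNMT3A held neither word, and 1 of them held a CHR word at 21 to 26. Over all genes with a window, 3.99% held an E2F word, 39.7% a CCAAT word and 18.2% a CHR word. Among the tested protein-coding genes, of which 81.7% had a window, an E2F word was present in 6.96%. It was present in 9.5% of those that fell, in 19.9% of the subset that fell by at least 1 on the log2 scale, in 6.43% of those not called and in 4.8% of those that rose. The other words were also most frequent in that subset. In the same order the shares were 16.3%, 29.5%, 11.7% and 11.4% for CHR. For CCAAT they were 46.5%, 57.1%, 41.7% and 42.6%. These shares describe letters in short windows and do not show that a factor binds. With an E2F word, UHRF1, HELLS, EZH2 and DNMT1 had log2 fold changes of -1.70, -1.38, -1.32 and -1.19, and SUZ12 had -0.50. Without one, SUV39H1, CBX5 and EED had -1.47, -1.06 and -0.81, and DNMT3A and DNMT3B had -0.15 and -0.08. Whether the words relate to the falls was not tested.

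Of the 10 genes, 8 fell in the siGDF15 group at an adjusted p-value under 0.05 and none rose. The counts were also 8 and 0 at an unadjusted p under 0.05 and with DESeq2 or limma. Across all 11867 genes tested with edgeR's quasi-likelihood test, 31.4% passed that threshold as lower and 30% as higher (3721 and 3565 genes, 61.4% together, or 4679 and 2701 genes when TMM factors were left out). The fall was at least 1 on the log2 scale for 6 of the 10, UHRF1, SUV39H1, HELLS, EZH2, DNMT1 and CBX5, where 4.78% of all tested genes were lower and 3.03% higher by that much. The median log2 fold change of the 10 was -1.12, beside 0.00 for all tested genes. The 2 genes that did not pass the test were DNMT3A and DNMT3B. In FPKM every siGDF15 library lay below every NC library for all 10 genes, an order found for 42.8% of tested genes. FPKM carries no TMM factor, and these factors were 1.03 to 1.04 in NC and 0.958 to 0.972 in siGDF15.

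**Figure D1:**
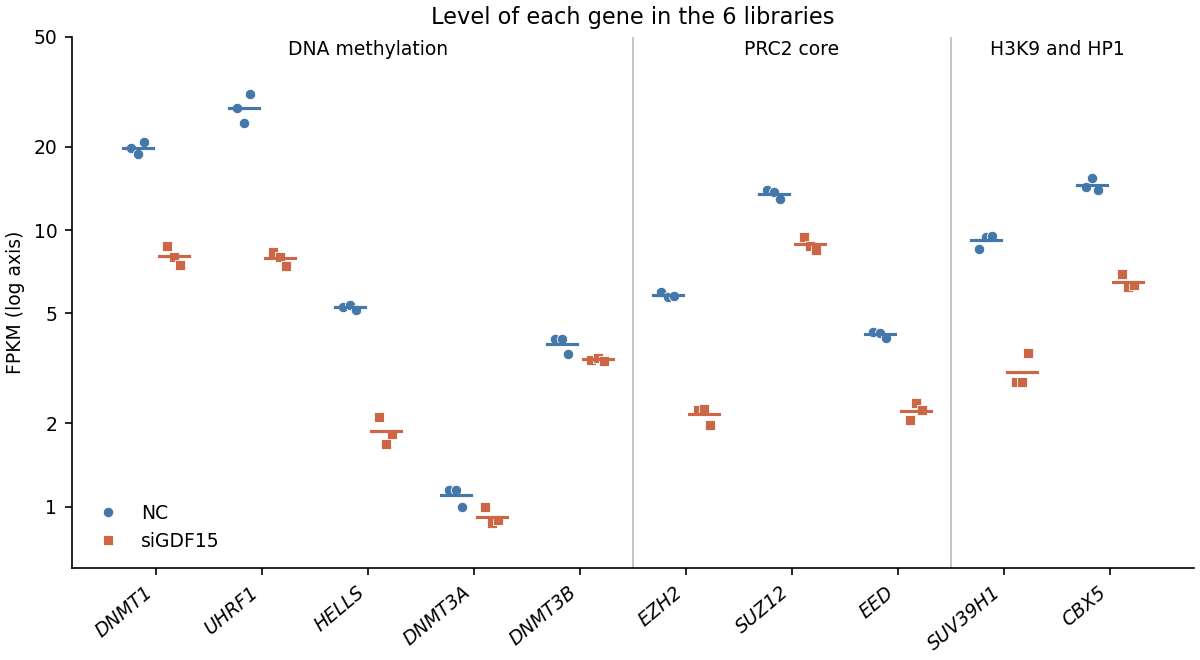
FPKM of each of the 10 genes on a log axis, with a point for each of the 3 NC and 3 siGDF15 libraries and a line at the group mean, ordered by role. The siGDF15 points lie well below the NC points for 8 genes, and the groups come close for DNMT3A (0.993 against 0.994 FPKM between the nearest libraries) and DNMT3B.

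UHRF1 had the largest fall. Its level was 27.6, 24.4 and 31.0 FPKM in NC and 8.35, 7.98 and 7.44 FPKM in siGDF15. The NC libraries spread more than those of any other gene of the group, yet the lowest of them was well above the highest siGDF15 library. The log2 fold change was -1.70 (SE 0.092, edgeR adjusted p = 2.1e-06), which left 30.8% of the NC level (95% interval 26.6% to 35.7%). In GRCh38, UHRF1 occupies chromosome 19, plus strand, from 4903080 to 4962154. Only 1.04% of tested genes had a log2 fold change as low.

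DNMT1, the maintenance methyltransferase, was at 19.8, 18.8 and 20.8 FPKM in NC and at 8.75, 8.01 and 7.48 FPKM in siGDF15. All 3 siGDF15 libraries were under the NC libraries by more than the spread within either group. The log2 fold change was -1.19 (SE 0.068, edgeR adjusted p = 2.8e-06), or 43.9% of the NC level (95% interval 39.4% to 48.9%). DNMT1 lies on the minus strand of chromosome 19 from 10133342 to 10231286. This span overlaps S1PR2 on the same strand, which had between 198 and 320 expected counts in NC where DNMT1 had between 21710 and 23994.

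HELLS was at 5.27, 5.36 and 5.15 FPKM in NC and at 2.11, 1.69 and 1.83 FPKM in siGDF15, again without overlap. Its log2 fold change was -1.38 (SE 0.077, edgeR adjusted p = 2.4e-06), or 38.5% of the NC level. HELLS lies on the plus strand of chromosome 10 from 94545329 to 94604115, and the gene listed as ENSG00000244332 overlaps it on the same strand. That gene varied between 0.072 and 3.67 FPKM among the libraries and did not pass the test (adjusted p = 0.35 from edgeR), and how reads were divided between the overlapping genes is not given in the sources used here. CDCA7, which activates HELLS, fell from 10.2 ± 0.331 FPKM to 5.22 ± 0.0742 FPKM (SD over 3 libraries), with a log2FC of -0.87 (edgeR adjusted p = 6.0e-06).

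The de novo methyltransferases were the least changed. DNMT3A had 1.15, 1.15 and 0.994 FPKM in NC and 0.993, 0.871 and 0.895 FPKM in siGDF15, with NC replicate 3 and siGDF15 replicate 1 at nearly the same value. With group means of 1.10 FPKM in NC and 0.920 FPKM in siGDF15, DNMT3A was close to the filter of a mean of 1 FPKM. The log2 fold change of DNMT3A was -0.15 (95% interval -0.36 to 0.05, adjusted p = 0.17 from edgeR). DNMT3B had 4.02, 4.03 and 3.55 FPKM in NC and 3.40, 3.45 and 3.37 FPKM in siGDF15, and its log2 fold change was -0.08 (95% interval -0.23 to 0.07, adjusted p = 0.34 from edgeR). These intervals reach no lower than 78.2% of the NC level for DNMT3A and 85.2% for DNMT3B, whereas the interval of DNMT1 reached no higher than 48.9%. The call on both genes depended on scaling: without TMM, which put the median over tested genes at -0.10, DNMT3A had -0.25 (adjusted p = 0.040) and DNMT3B -0.18 (adjusted p = 0.047 from edgeR). DNMT3A lies on the minus strand of chromosome 2 from 25227855 to 25342590 and DNMT3B on the plus strand of chromosome 20 from 32762385 to 32809356. The proportion of DNMT3B to DNMT3A was 3.50 to 3.58 in NC and 3.42 to 3.97 in siGDF15, and the groups overlapped. DNMT3L, the catalytically inactive cofactor of these enzymes, was at most 0.026 FPKM in any library.

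Within PRC2 the 3 core genes fell, the catalytic subunit with the lowest log2 fold change. EZH2 had 5.95, 5.71 and 5.79 FPKM in NC and 2.24, 2.26 and 1.97 FPKM in siGDF15, a narrow spread in both groups. The log2 fold change of EZH2 was -1.32 (SE 0.071, edgeR adjusted p = 2.1e-06), or 40% of the NC level (95% interval 35.7% to 44.8%). EED, which reads methylated lysine 27, had 4.27, 4.23 and 4.08 FPKM in NC and 2.05, 2.36 and 2.24 FPKM in siGDF15. The fall of EED was smaller, with a log2 fold change of -0.81 (SE 0.074, edgeR adjusted p = 3.2e-05). SUZ12, the scaffold of the complex, had 14, 13.7 and 12.9 FPKM in NC and 9.43, 8.75 and 8.46 FPKM in siGDF15. Its log2 fold change was -0.50 (SE 0.056, edgeR adjusted p = 1.0e-04), so that 70.6% of the NC level was left, the smallest of the 8 falls. EZH2 lies on the minus strand of chromosome 7 from 148807257 to 148884304, SUZ12 on the plus strand of chromosome 17 from 31937007 to 32001038 and EED on the plus strand of chromosome 11 from 86244753 to 86278813. The partial copy SUZ12P1 averaged 1.10 FPKM in NC and did not pass the test (adjusted p = 0.48 from edgeR), and reads shared with it could make the value of SUZ12 less certain. ENSG00000288809 overlaps the start of EED on the other strand with 8 to 16 expected counts in the NC libraries.

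EZH1, the paralog of EZH2 that is typical of resting cells, moved the other way. It was at 3.88, 3.88 and 3.85 FPKM in NC and at 4.60, 4.57 and 4.73 FPKM in siGDF15, and the groups did not overlap. EZH1 rose by a log2 fold change of 0.36 (SE 0.052, edgeR adjusted p = 4.2e-04), and the rise passed the test at 0.21 to 0.42 under all 16 alternative settings. In NC the level of EZH2 was 1.47 to 1.53 times that of EZH1 per length, and in siGDF15 it was 0.417 to 0.494 times. The order of the paralogs was therefore exchanged in all 3 siGDF15 libraries, a difference of -1.69 in the log2 ratio. Of the other 9 PRC2 genes listed, 4 fell, 1 rose and 4 did not pass the test (31.4% of all tested genes fell and 30% rose). PHF19, an accessory subunit that guides PRC2 to chromatin, fell most, from 21.9, 20.5 and 22.1 FPKM to 6.27, 6.31 and 5.60 FPKM (log2 fold change -1.72, adjusted p = 6.0e-07 from edgeR). Its paralogs MTF2 and PHF1 did not pass the test (log2 fold change -0.12 and 0.14), though without TMM MTF2 did (-0.22, adjusted p = 0.024), and PHF1 did with libraries scaled to equal medians (0.20, adjusted p = 0.028) and without NC replicate 2 (0.19, adjusted p = 0.036). EPOP had a log2 fold change of -0.79 and the histone binding subunits RBBP7 and RBBP4 of -0.68 and -0.36, all past the threshold. JARID2 had a log2 fold change of 0.27 (adjusted p = 0.027 from edgeR), its FPKM values overlapped between the groups, and without TMM it did not pass (0.16, adjusted p = 0.14).

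**Figure D2:**
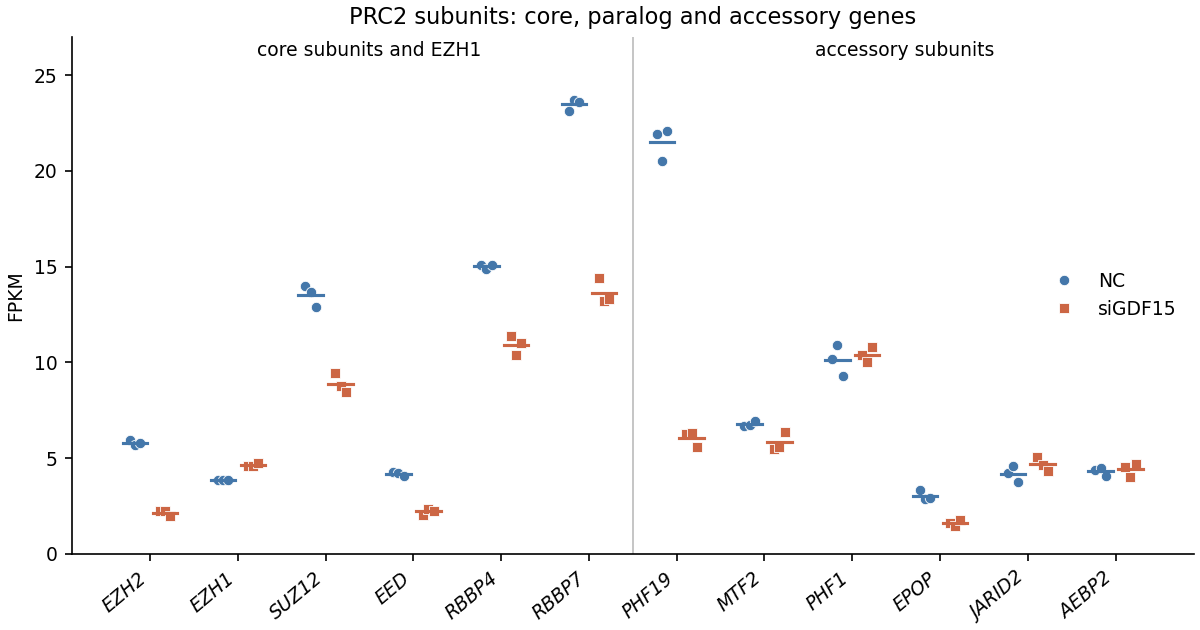
FPKM of PRC2 subunits in the 3 NC and 3 siGDF15 libraries, with a line at each group mean. EZH2 and EZH1 exchange order between the groups, and PHF19 drops from above 20 FPKM to about 6 FPKM while PHF1 overlaps.

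Both genes of the heterochromatin pathway fell by more than 1 on the log2 scale. SUV39H1 had 8.53, 9.46 and 9.52 FPKM in NC and 2.81, 2.81 and 3.58 FPKM in siGDF15, where replicate 3 was the highest. The log2 fold change was -1.47 (SE 0.11, edgeR adjusted p = 8.8e-06), or 36.1% of the NC level (95% interval 30.5% to 42.6%), and it was the least precise of the 10. SUV39H1 lies on the plus strand of chromosome X from 48695554 to 48709016. CBX5 had 14.3, 15.4 and 14 FPKM in NC and 6.93, 6.21 and 6.34 FPKM in siGDF15, with no overlap. Its log2 fold change was -1.06 (SE 0.055, edgeR adjusted p = 1.8e-06), or 48.0% of the NC level. CBX5 lies on the minus strand of chromosome 12 from 54230942 to 54280133, a span that also holds ENSG00000289154 on the same strand at 70 to 117 expected counts in NC. The paralogs fell less. SUV39H2 had a log2 fold change of -0.53, and the other HP1 genes CBX1 and CBX3 had -0.48 and -0.31, each past the threshold.

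**Figure D3:**
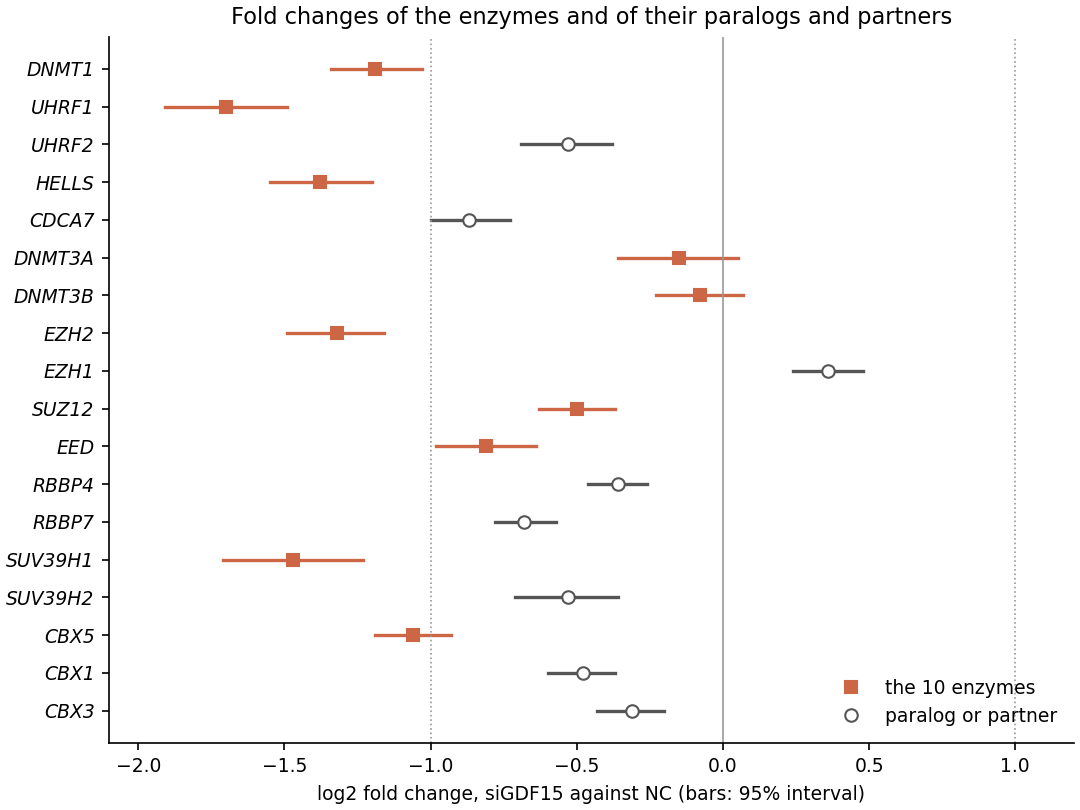
Log2 fold change of siGDF15 against NC with its 95% interval from the edgeR fit, for the 10 genes (filled squares) and their paralogs or partners (open circles), with dotted lines at -1 and 1. The intervals of DNMT3A and DNMT3B include 0, EZH1 lies above 0, and UHRF1 lies farthest to the left of the genes plotted, at -1.70.

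Proportions within complexes and between paralogs were compared as log2 ratios of FPKM for 12 pairs. In 10 pairs all siGDF15 libraries lay below all NC libraries, in 1 pair they lay above, and DNMT3B to DNMT3A overlapped (difference 0.07, exact permutation p = 0.4). Single genes were also often apart in FPKM: the siGDF15 libraries lay below all NC libraries for 42.8% of tested genes and above for 25.6%. The share among gene pairs in general was not computed. For each of the 11 pairs without overlap the exact permutation test gave p = 0.1, two-sided, the smallest that 3 libraries against 3 allow, and an adjusted p of 0.109 over the 12 pairs. No pair could therefore pass the 0.05 threshold. UHRF1 was at 1.30 to 1.49 times the level of DNMT1 in NC and at 0.954 to 0.996 times in siGDF15. UHRF1 was 5.81 to 8.48 times its paralog UHRF2 in NC and 2.95 to 3.37 times in siGDF15. SUV39H1 went from 1.68 to 1.91 times SUV39H2 in NC to 0.804 to 1.10 times. Within PRC2 the ratio of EZH2 to SUZ12 went from 0.416 to 0.448 in NC to 0.233 to 0.258 in siGDF15, and that of SUZ12 to EED was the ratio that was higher in siGDF15. CBX5 was 0.331 to 0.352 times CBX1 in NC and 0.224 to 0.232 times in siGDF15.

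**Figure D4:**
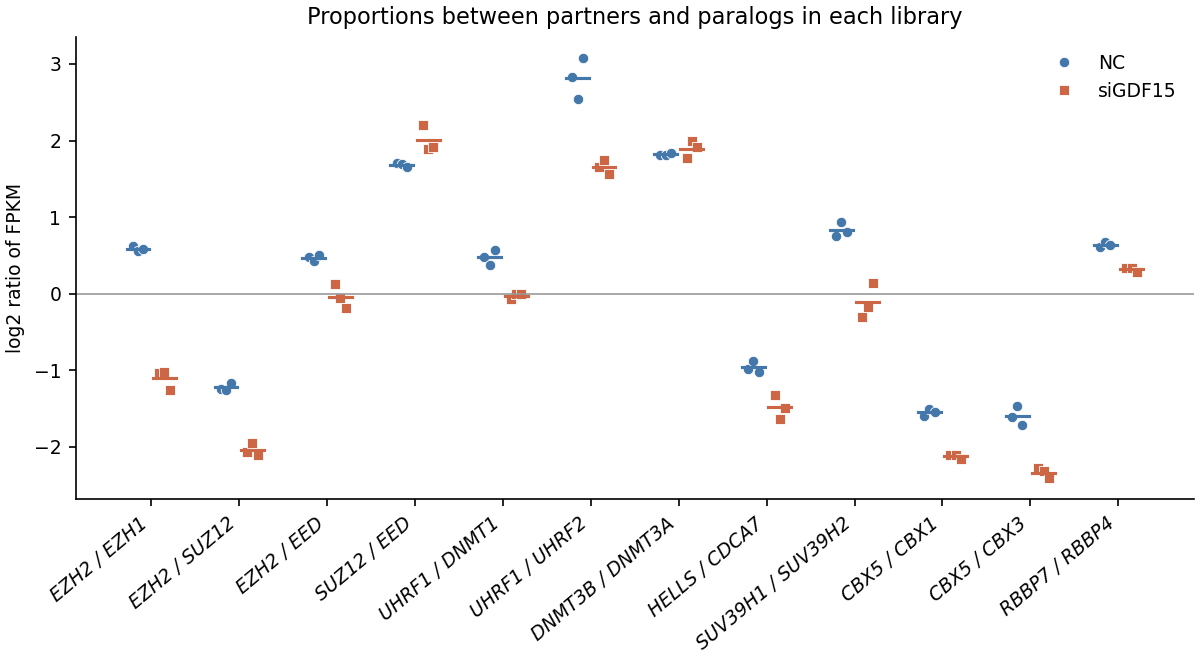
Log2 ratio of FPKM for the 12 pairs of partners or paralogs, with a point for each library and a line at the group mean. A value of 0 means equal FPKM. Groups are apart in 11 pairs and overlap for DNMT3B / DNMT3A, and the shift of -1.69 for EZH2 / EZH1 crosses 0.

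The order of the 10 genes by level changed. In NC the order by mean FPKM was UHRF1 (27.7), DNMT1 (19.8), CBX5 (14.6), SUZ12 (13.5), SUV39H1 (9.17), EZH2 (5.82), HELLS (5.26), EED (4.2), DNMT3B (3.87) and DNMT3A (1.10). Only CBX5 and SUZ12 overlapped among these neighbours. In siGDF15 SUZ12 came first at 8.88 FPKM, overlapping with DNMT1 (8.08), and DNMT1 overlapped with UHRF1 (7.92). DNMT3B, at 3.41 FPKM, moved up past SUV39H1, EZH2, HELLS and EED, and it overlapped with SUV39H1 (3.07). EED (2.22), EZH2 (2.16) and HELLS (1.88) overlapped as neighbours, and DNMT3A remained last at 0.920 FPKM.

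Other genes of the same pathways were listed by function, 89 of them tested, of which 34 fell, 16 rose and 39 did not pass the test. Their median log2 fold change was -0.05. Over all tested genes 31.4% fell and 30% rose, the shares to set beside these counts and those of each list. Among 15 tested partners, readers and removers of DNA methylation, 6 fell and 3 rose. Besides CDCA7 these included ZBTB38 and UHRF2 with log2 fold changes of -0.65 and -0.53, while the methyl-CpG binding ZBTB4 had 0.43 (edgeR adjusted p = 7.6e-04). Of the oxidases that start the removal of DNA methylation, TET2 and TET3 did not pass the test (log2 fold change 0.06 and -0.10, or -0.04 and -0.20 without TMM, where TET3 passed) and TET1 was at most 0.294 FPKM in any library. Of 20 PRC1 subunits, which form the other Polycomb complex, 7 fell and 2 rose, with a median of 0.01. PCGF5 had the largest fall at -1.13, followed by CBX2 at -0.82 and PCGF6 at -0.74, whereas RING1 rose by 0.43. Of 14 genes for lysine 9 methylation, HP1 and the HUSH complex, 7 fell and 2 rose, among them the HUSH subunit TASOR at -0.63. KMT5A, which places the first methyl group on lysine 20 of histone H4, fell by 0.91 on the log2 scale, and the genes for the next methyl groups, KMT5B and KMT5C, did not pass the test.

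Among enzymes that erase marks, 11 demethylase and deubiquitinase genes were tested, of which 4 fell and 3 rose. Over all tested genes 31.4% fell and 30% rose, so these counts lay near that share. KDM6B, which removes the mark made by PRC2, had 2.53, 2.80 and 2.08 FPKM in NC and 3.88, 3.71 and 4.08 FPKM in siGDF15, a rise of 0.76 on the log2 scale (adjusted p = 2.7e-04 from edgeR). Its relative KDM6A did not pass the test (log2 fold change -0.19), though without TMM it did (-0.29, adjusted p = 0.022). The largest fall in this list was that of PHF2 at -0.71. Of 12 tested histone deacetylase and SIN3 genes, 5 fell and 4 rose, beside the same 31.4% and 30% of all tested genes. The 4 class IIa members did not share a direction. HDAC9 rose from 1.11 ± 0.0328 to 2.17 ± 0.0768 FPKM and HDAC5 from 0.901 ± 0.229 to 1.69 ± 0.201 FPKM, whereas HDAC4 fell from 1.51 ± 0.186 to 0.692 ± 0.0601 FPKM (SD, n = 3). The log2 fold changes were 1.06, 1.01 and -1.01 (adjusted p = 2.8e-06, 0.0015 and 7.8e-05 from edgeR). HDAC7, the remaining class IIa member, fell by 0.29 on the log2 scale (adjusted p = 0.0016 from edgeR).

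**Figure D5:**
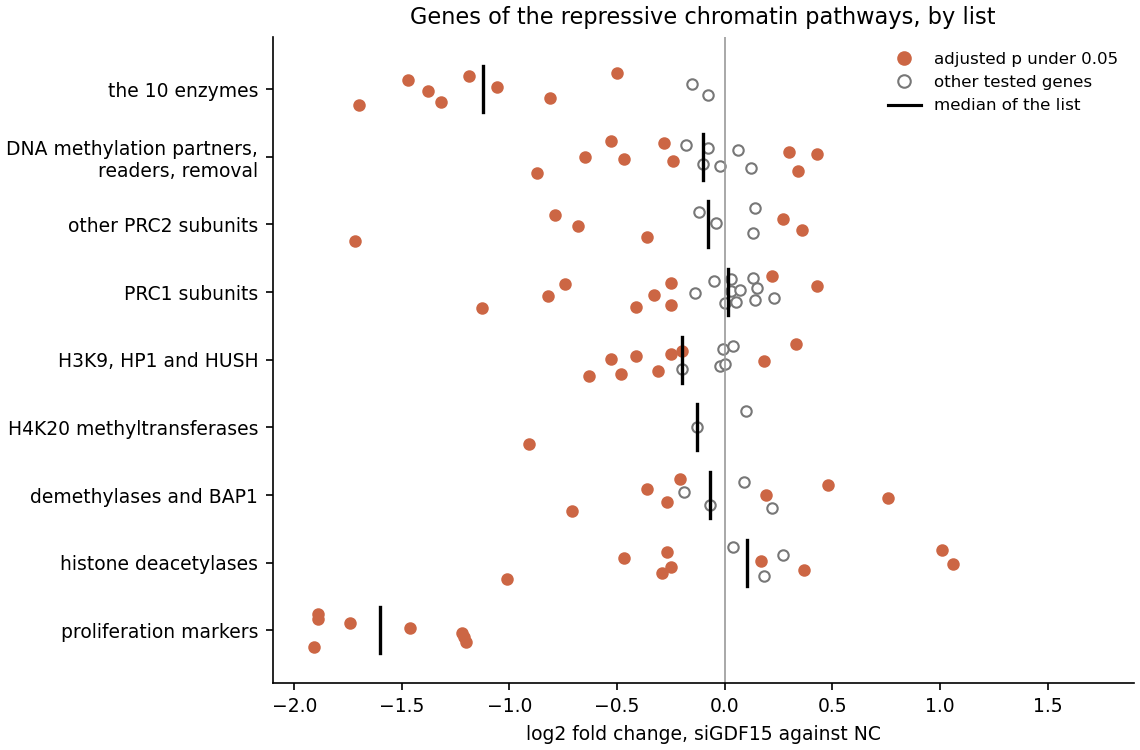
Log2 fold change of each tested gene by list, filled where the adjusted p-value was under 0.05, with a bar at the median of the list. The 10 genes, labelled as enzymes in the plot (median -1.12), and the 8 proliferation markers (median -1.60) lie to the left. The medians of the other 7 lists plotted lie between -0.20 and 0.11.

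Genes that these enzymes and their partners are known to keep silent were mostly too low to test. Of 25 germline genes whose promoters are methylated in most tissues, 19 were in the table and 3 reached a mean of 1 FPKM, and none of them passed the test, nor an unadjusted p under 0.05 in edgeR. MAGEA3 had 1.12, 1.70 and 2.76 FPKM in NC and 2.36, 2.71 and 2.63 FPKM in siGDF15 (log2 fold change 0.57, adjusted p = 0.13 from edgeR). MAGEA6 and MAGEA4 had log2 fold changes of 0.53 and 0.33, and reads shared between near-identical MAGEA copies make these values uncertain. NC replicate 3 was the highest NC library for all 3 genes. Without it MAGEA3 had a log2 fold change of 0.97 (adjusted p = 0.0034 from edgeR) and MAGEA6 of 1.01 (adjusted p = 0.0021 from edgeR), both past the threshold. Neither gene passed under the other 15 alternatives, and MAGEA4 passed under none of the 16. Leaving out the highest NC library raises these fold changes by itself. The 19 genes summed to 4.92 to 10.6 FPKM in NC and 8.59 to 9.44 FPKM in siGDF15, so the groups overlapped. Of 37 HOX genes in the table, classic targets of Polycomb repression, only HOXA5 reached a mean of 1 FPKM. Its log2 fold change was -0.07 (adjusted p = 0.77 from edgeR), and the HOX genes summed to 6.83 to 7.45 FPKM in NC and 6.57 to 6.88 FPKM in siGDF15. The 95% interval of MAGEA3 ran from -0.11 to 1.24 on the log2 scale, and neither DNA methylation nor histone marks were measured here.

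Proliferation markers fell together with the 8 genes that fell. All 8 markers tested fell, with log2 fold changes between -1.91 and -1.20 and a median of -1.60, and their summed level went from 508 to 524 FPKM in NC to 159 to 186 FPKM in siGDF15. MKI67 had 42.1, 42.9 and 43.1 FPKM in NC and 12.9, 12.1 and 10.6 FPKM in siGDF15 (log2 fold change -1.74, adjusted p = 7.3e-07 from edgeR), and PCNA, the replication clamp that UHRF1 and DNMT1 work with, had a log2 fold change of -1.20. In RNA of whole cultures, fewer dividing cells and less of a transcript per dividing cell cannot be told apart. The part of proliferation in the falls described here was not tested.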

How the data were processed

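Poly(A) RNA of 6 libraries was sequenced by the authors as paired reads. The processing notes name fastp, HISAT2, StringTie and edgeR with GRCh38, and versions, options, annotation release and strand setting are not given in the sources used here. The authors deposited FPKM values per gene and library, scaled by transcript length and mapped fragments. The deposited expected counts are whole numbers derived from transcript coverage, without normalization, and the most frequent value among small counts was 4, so they are not a tally of independent reads. No column of values per library was left out.

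The test took 11867 of 34738 genes, those whose mean FPKM was 1 or more, with edgeR 4.0.16 (TMM, quasi-likelihood, two-sided, Benjamini-Hochberg over all tested genes). Standard errors and intervals follow from each fold change and the F statistic. The threshold was an adjusted p-value of 0.05, and a log2 fold change of 1 where stated. R 4.3.3, limma 3.58.1, DESeq2 1.42.0, Python 3.11.15 and scipy 1.17.1 were used. The fit was tested on simulated data for this comparison with 11867 genes, of which 200 were changed. Of genes changed by a log2 fold change of 1, 97% were recovered, and of those changed by 0.5, 69%. Another 15 unchanged genes were called. In the data 61.4% of tested genes were called, so these rates may not carry over. Ratios of FPKM were compared by exact permutation over libraries.

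The 10 genes, the lists of related genes and the promoter words were chosen with earlier results of these data known. Genes were named by rule: the 10 genes, GDF15, genes of the 12 ratios, up to 4 called genes with the largest change per list, MKI67 and PCNA, and genes overlapping the 10 or named as their pseudogenes. TET genes, DNMT3L, ZBTB4, JARID2, HDAC7, MAGEA10, KMT5B, KMT5C, KDM6A, MTF2, PHF1, MAGEA4, MAGEA6, MAGEA3 and HOXA5 were named from the same lists after their values were seen, as were the thyroid and other cell type markers given as a check of the cell line. Same-numbered libraries of the groups were not treated as paired, as described in the closing section. Alternatives were scaling without TMM, DESeq2 size factors, equal medians, DESeq2, limma on log2 of FPKM plus 1 or plus 0.1, other filters, counts divided by 4, the replicate block and each library left out.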

Additional observations from a re-analysis of the deposited data

How the results depend on the processing

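The 8 falls at an adjusted p-value under 0.05, the 6 of them of at least 1 on the log2 scale and the count of 0 rises were kept in number under all 16 alternatives, except that scaling without TMM gave 10 falls, DNMT3A (-0.25) and DNMT3B (-0.18) being added. With each library left out in turn, log2 fold changes stayed between -1.79 and -1.61 for UHRF1, -1.24 and -1.13 for DNMT1, -1.36 and -1.26 for EZH2 and -1.10 and -1.02 for CBX5. The targeted gene GDF15 lay between -1.02 and -0.86 over all alternatives. Small differences that were not called changed sign: TET2 had -0.04 without TMM and -0.03 or -0.04 with limma at a pseudocount of 1 or 0.1, KMT5B had -0.01 with limma at both, and with each library left out TET2 ran from -0.04 to 0.13 and HOXA5 from -0.17 to 0.05. JARID2 was not called under 9 alternatives. Same-numbered libraries showed no shared replicate effect: deviations from the group means of libraries 1, 2 and 3 correlated at 0.0276, -0.0753 and 0.0458 between the groups, across genes. These correlations cannot show whether same-numbered libraries were prepared together. With the replicate block 6906 genes were called in place of 7286, with 8 falls among the 10 genes. With expected counts divided by 4, DNMT3A, which had 695 to 1195 expected counts, kept a log2 fold change of -0.15 (adjusted p = 0.19 from edgeR). Whether the small difference in DNMT3A or DNMT3B is one of expression or of scaling was not tested.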

Other observations

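Some transcripts that overlap the 10 genes had values of their own, given here after they were seen. ENSG00000289154 lies within CBX5 on the same strand and was under the filter, at 1.43, 0.85 and 1.13 FPKM in NC and at 0.23, 0.456 and 0.336 FPKM in siGDF15, without overlap between the groups. ENSG00000258344, which overlaps the start of CBX5 on the other strand, had 0.097, 0.343 and 0.405 FPKM in NC and 0.118, 0 and 0.0323 FPKM in siGDF15, with overlap, and at most 18 expected counts in any NC library. EZH2P1 and CBX5P1, pseudogenes by name, had at most 4 expected counts in any NC library. The NC libraries differed among themselves in the MAGEA genes, and MAGEA10 ranged from 0.018 to 0.329 FPKM within NC.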
